A study of Mus musculus with 32 samples.

Results

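The genes of the aminoacyl-tRNA synthetases, the enzymes that join amino acids to their transfer RNAs, were examined in fat cells loaded with cholesterol. They were chosen by name from the deposited count table, as every protein-coding gene whose symbol is a single letter followed by ars, or is Farsa, Farsb or Eprs, with or without a final 1 or 2. The rule found 37 of 56748 genes and used no measured value. The 17 symbols ending in 2 were taken as the mitochondrial class and the other 20 as the cytosolic class. All 37 passed the filter on low counts, and each had at least 158 reads in every library. The rule leaves out Tars3, a further threonyl-tRNA synthetase gene that the table lists under its older symbol Tarsl2.

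The samples were mouse primary white adipocytes, the lipid-storing cells of white fat, prepared from subcutaneous adipose tissue and labelled WT for genotype. Every group received an siRNA, either a scrambled sequence (scramble), siNfe2l1, siAtf3, or siNfe2l1 and siAtf3 together (double), and then either a control treatment or 400 µM cholesterol carried by methyl-β-cyclodextrin for 6 h. Poly(A) RNA of 4 libraries in each of these 8 groups was sequenced, and the sample titles call them biological replicates without saying whether they came from separate mice, so p-values measure the spread between these libraries. Nfe2l1 encodes a transcription factor best known for raising proteasome genes, and Atf3 one that many kinds of stress induce. Whether the control cells received the carrier is not stated, so effects of cholesterol and of its carrier cannot be told apart.

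Cells keep separate synthetases for the ribosomes of the cytosol and of the mitochondrion, and nuclear genes encode both classes. Several cytosolic enzymes are held in the multisynthetase complex by the scaffold proteins Aimp1, Aimp2 and Eef1e1, while the mitochondrial enzymes are imported and charge the transfer RNAs made from mitochondrial DNA. In many cell types the transcription factor ATF4, the effector of the integrated stress response, raises a large share of the cytosolic synthetase genes through DNA elements bound by C/EBP and ATF factors. Kars and Gars each encode the cytosolic and the mitochondrial enzyme, and the count table does not split their transcripts.

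Total counts were 23457384 to 33828418 per library. The targeted mRNAs fell where their siRNA was given. Nfe2l1 stood at 15.2% of scramble with siNfe2l1 in control cells and 14.7% in cholesterol, and at 23.4% and 19.3% with double silencing. Atf3 stood at 37.8% and 10.3% with siAtf3 and at 57.2% and 12.8% with double silencing, and cholesterol raised Atf3 14.8-fold in scramble cells. The adipocyte markers Adipoq and Plin1 had at least 19248 and 39173 reads in every library. Summed fibroblast markers were 30040 to 31526 CPM, that is, counts scaled to a common library size, in scramble control libraries and 10686 to 11418 CPM in scramble cholesterol libraries. Macrophage markers summed to 229 to 267 and 142 to 173 CPM in the same groups, and endothelial markers to 726 to 784 and 485 to 570 CPM. In scramble cells 12 of 14 adipocyte markers rose and 1 fell with cholesterol, while 11 of 13 macrophage, 10 of 11 tested fibroblast, 9 of 10 endothelial and 9 of 10 proliferation markers fell. Of all tested genes, 32.9% rose and 32.3% fell in the same comparison. Dpp4 was the marker of these lists with no read in at least 1 library. In bulk RNA, fewer cells of a type and less RNA per cell cannot be told apart, and the part of these cells in the results below was not tested.

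Cytosolic synthetase mRNAs were the more abundant class. Per kilobase of gene model (RPKM, CPM divided by the length of the gene model in kilobases), the median level in scramble control cells was 21.2 for the cytosolic and 4.79 for the mitochondrial genes. Of the 20 highest genes 18 were cytosolic, the exceptions being Lars2 and Iars2, the mitochondrial leucine and isoleucine enzymes. Gars, the glycine enzyme, stood first at 59.6 ± 1.71 RPKM (SD, n = 4), followed by the asparagine enzyme Nars at 45.8 ± 2.58 and the serine enzyme Sars at 26.4 ± 0.54. Each of these 3 did not overlap with the gene ranked below it. The next 10 genes, from Rars at 24.7 to Farsb at 19.9 RPKM, overlapped with their neighbours in this order. The methionine enzyme of mitochondria, Mars2, was lowest at 1.59 ± 0.14 RPKM, below Nars2 at 1.92 ± 0.11. In the whole order 20 of 36 pairs of neighbours had overlapping libraries.

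Cholesterol raised most cytosolic synthetase mRNAs in scramble cells and left the mitochondrial class mixed. Of 20 cytosolic genes, 15 rose, 1 fell and 4 did not pass the test (edgeR quasi-likelihood test, false discovery rate 0.05), against 32.9% of all 16984 tested genes called higher and 32.3% called lower. The median log2 fold change of the cytosolic genes was 0.62, beside 0.00 over all tested genes. Of 17 mitochondrial genes, 5 rose, 3 fell and 9 did not pass, with a median of 0.09. Scaling by library totals alone lowered the median of all genes by 0.12 on the log2 scale and left 19 members called higher in place of 20, without Dars, and 8 called lower in place of 4. The Dars call was also lost without a filter on low counts. Scaling by library totals gave 4332 genes higher and 6804 lower over the whole table, in place of 5584 and 5487.

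**Figure D1:**
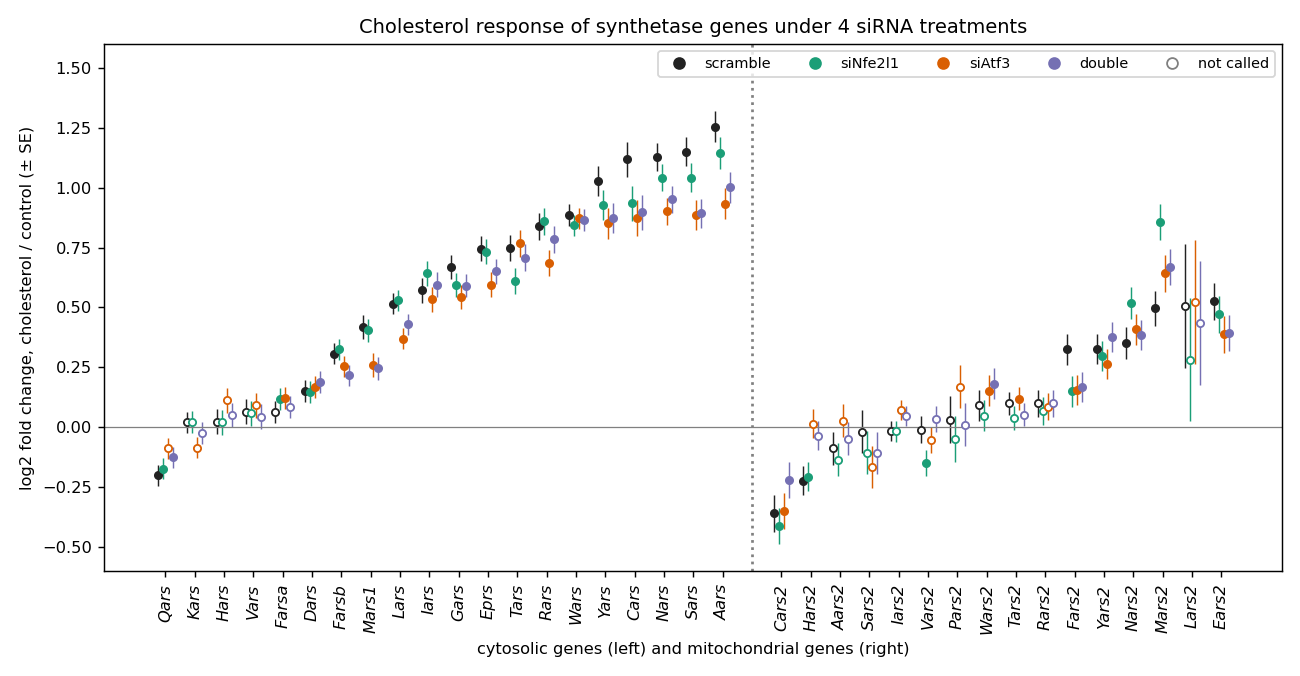
Log2 fold change with cholesterol (vertical axis, ± SE) of 36 of the synthetase genes in the 4 siRNA treatments, with cytosolic genes left and mitochondrial genes right of the dotted line, each class in order of its value in scramble cells. Open points did not pass the test. The values in scramble cells run from -0.20 for Qars to 1.25 for Aars in the cytosolic class and from -0.36 for Cars2 to 0.53 for Ears2 in the mitochondrial class.

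Aars, the alanine enzyme, lies on GRCm39 chromosome 8 (111759776 to 111784296, plus strand, ENSMUSG00000031960) and had the highest response. It read 219, 216, 233 and 229 CPM in the 4 scramble control libraries and 585, 513, 548 and 496 CPM in the 4 cholesterol libraries. The groups did not overlap, and the log2 fold change was 1.25 ± 0.07 (SE, adjusted p = 2.01e-18). Over all tested genes in scramble cells, 28.8% had all cholesterol libraries above all controls and 28.6% all below. Sars, on chromosome 3 (108332181 to 108352525, minus strand), read 134, 133, 136 and 139 CPM in control and 342, 278, 297 and 288 CPM in cholesterol libraries. All 4 cholesterol libraries lay above all controls (1.15 ± 0.06, adjusted p = 4.55e-18).

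Nars, on chromosome 18 (64632718 to 64649723, minus strand), read 189, 191, 206 and 212 CPM in control and 478, 409, 426 and 432 CPM in cholesterol libraries. Its log2 fold change was 1.13 ± 0.06 (adjusted p = 7.88e-19), with no overlap. Cars, the cysteine enzyme, on chromosome 7 (143110967 to 143153827, minus strand), rose from 58.3, 54.2, 61.5 and 60.01 CPM to 140.0, 116, 132 and 119.7 CPM (1.12 ± 0.07, adjusted p = 1.76e-15). Library 1 was the highest cholesterol library for all 4 genes. It was also highest for Atf4, at 909.9 CPM against 623, 731 and 634 CPM in the other cholesterol libraries and 199.5 to 203 CPM in control libraries.

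The enzymes for tyrosine (Yars, 1.03), tryptophan (Wars, 0.89), arginine (Rars, 0.84), threonine (Tars, 0.75) and glycine (Gars, 0.67) followed, as did Eprs, the double enzyme for glutamate and proline, at 0.75. The isoleucine, leucine and methionine enzymes rose less, with Iars at 0.57, Lars at 0.52 and Mars1 at 0.42. Farsb, the beta subunit of the phenylalanine enzyme, rose by 0.31 and Dars, the aspartate enzyme, by 0.15 on the log2 scale. Farsa, which encodes the alpha subunit of the same phenylalanine enzyme, stood at 0.07 ± 0.05 and did not pass. Kars (0.02 ± 0.05), Hars (0.02 ± 0.05) and Vars (0.06 ± 0.05), the lysine, histidine and valine enzymes, did not pass either. Kars read 103, 100.9, 106 and 104 CPM in control and 114, 103, 100.1 and 103 CPM in cholesterol libraries, and these overlapped.

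Qars, the glutamine enzyme, was the only cytosolic member that fell. It read 79.4, 78.8, 80.6 and 80.5 CPM in control and 72.8, 71.6, 68.7 and 64.8 CPM in cholesterol libraries. All cholesterol libraries lay below all controls (-0.20 ± 0.04, adjusted p = 1.63e-04).

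The 12 cytosolic genes that are textbook ATF4 targets in other cells (Aars, Cars, Eprs, Gars, Iars, Lars, Mars1, Nars, Sars, Tars, Wars and Yars) all rose, by 0.42 to 1.25, with a median of 0.82. Of all tested genes 32.9% were called higher. The list was chosen with earlier results of these data known, so the split describes the values and is not an independent test. Of the other 8 cytosolic genes, Rars, Farsb and Dars rose, Qars fell, and the median was 0.06. In each library the summed CPM of the 12 genes was divided by that of the other 8, a ratio that does not depend on the scaling of the library. It was 2.61, 2.58, 2.64 and 2.64 in control and 4.31, 4.21, 4.54 and 4.22 in cholesterol libraries. Among the 8 synthetases of the multisynthetase complex 6 rose and Qars fell (median 0.47), and of the 12 cytosolic genes outside it 9 rose (median 0.82). Split by the fold of the catalytic domain, 7 of 9 cytosolic class I genes and 7 of 10 class II genes rose, leaving aside Eprs, which holds both.

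The promoters of members were searched for TGATGNAA, the core of the C/EBP-ATF response element through which ATF4 is known to act, on both strands of the RefSeq window from 250 bases before to 50 bases after each gene's start (GRCm38.p6). Of the 20 cytosolic members 13 had an entry, and 5 of them (38.5%) held the motif. Of 14 mitochondrial members with an entry none did, beside 4.51% of all 27025 genes of the table. A matched site of each is shown because all 5 genes are among those that rose. Each is given as 30 bases read in the direction of the motif, which is in capitals.
Aars, chr8:111033840-111033869: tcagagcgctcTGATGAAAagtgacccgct
Gars, chr6:55037960-55037989: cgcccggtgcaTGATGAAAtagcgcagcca
Tars, chr15:11399655-11399684: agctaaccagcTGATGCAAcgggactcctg
Iars, chr13:49682126-49682155: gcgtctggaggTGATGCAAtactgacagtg
Yars, chr4:129189895-129189924: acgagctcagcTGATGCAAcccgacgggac

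Yars carried the motif on the strand of the gene and the other 4 genes on the opposite strand. Of the 8 cytosolic members with an entry and no match, Sars and Eprs rose by 1.15 and 0.75 and Kars and Qars did not rise, so that members with and without a match both rose. A match describes letters in this window and was not tested as a binding site. Nars, Vars, Rars, Lars, Wars, Cars and Hars of the cytosolic and Hars2 and Pars2 of the mitochondrial members had no entry.

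Among the mitochondrial genes, those for glutamate (Ears2), methionine (Mars2), asparagine (Nars2), tyrosine (Yars2) and phenylalanine (Fars2) rose with cholesterol. Ears2 read 14.8, 15.5, 15.7 and 14.5 CPM in control and 24.5, 19.3, 22.6 and 20.6 CPM in cholesterol libraries (0.53 ± 0.08, adjusted p = 2.37e-07). Mars2 rose from 15.9, 17.7, 19.6 and 18.5 CPM to 21.7, 28.2, 24.8 and 26.5 CPM (0.50 ± 0.07, adjusted p = 3.00e-07). In neither gene did the groups overlap. Nars2 rose from 13.7, 12.6, 14.2 and 12.9 CPM to 16.6, 16.9, 17.4 and 17.3 CPM (0.35 ± 0.07). Yars2 rose from 21.3, 21.9, 22.0 and 23.2 CPM to 29.3, 25.5, 27.9 and 28.4 CPM (0.33 ± 0.06), and Fars2 also by 0.33 ± 0.06. All 4 cholesterol libraries of these 3 genes lay above the controls. In all, 5 of 17 mitochondrial genes were so separated, near the 28.8% of all tested genes.

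Cars2 and Hars2, the mitochondrial cysteine and histidine enzymes, were among those that fell. Cars2 read 17.5, 16.9, 15.5 and 17.1 CPM in control and 12.2, 14.2, 12.5 and 13.4 CPM in cholesterol libraries (-0.36 ± 0.08, adjusted p = 1.14e-04), with no overlap. Hars2 read 46.1, 40.2, 39.7 and 40.8 CPM in control and 35.8, 36.2, 34.2 and 36.5 CPM in cholesterol libraries (-0.22 ± 0.06, adjusted p = 1.85e-03). In Hars2, too, all cholesterol libraries lay below all controls, as they did for 28.6% of all tested genes.

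Of the 37 members, 10 overlap another tested gene on the opposite strand, 9 of them a protein-coding one, and whether reads were counted by strand is not stated. Mars1 shares 68 bases with Ddit3, a stress-induced transcription factor gene that rose by 3.12 on the log2 scale. Hars and Hars2 share 198 bases, Cars2 shares 984 with Naxd (0.06), Ears2 shares 89 with Ubfd1 (-0.27), and Fars2 shares 920 with Nrn1 (-1.36) and 115 with Lyrm4. Iars2 shares 2034 bases with Rab3gap2, which rose by 0.91 while Iars2 stood at -0.02 ± 0.04. Yars (30 bases with C77080), Wars (544 with Wdr25) and Lars (438 with a pseudogene) complete the list. Reads in these stretches cannot be told apart, and their part in the results was not tested.

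Taken by amino acid, the classes could be set side by side in 18 pairs, with Eprs paired to Ears2 and to Pars2 and both phenylalanine subunits paired to Fars2. The cytosolic gene had the higher log2 fold change in 15 pairs and the higher RPKM in scramble control cells in 17. Both genes rose in 5 pairs, the cytosolic gene alone in 10, the mitochondrial gene alone in 1 (Farsa with Fars2) and neither in 2 (Hars with Hars2 and Vars with Vars2). The gap was widest for cysteine, where Cars stood at 1.12 and Cars2 at -0.36, followed by alanine, where Aars stood at 1.25 and Aars2 at -0.09 ± 0.07.

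**Figure D2:**
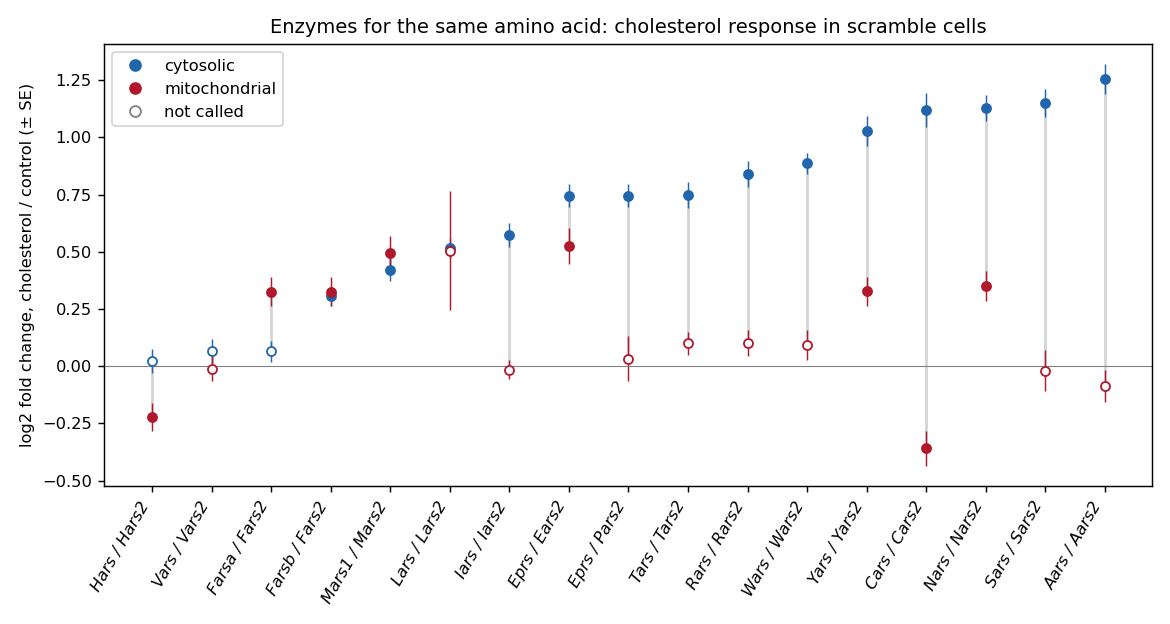
Log2 fold change with cholesterol in scramble cells (vertical axis, ± SE) of the cytosolic (blue) and mitochondrial (red) gene of an amino acid in 17 pairs, joined by a grey line and ordered by the cytosolic value. Open points did not pass the test. The cytosolic point lies above the mitochondrial one in every pair drawn except those of Fars2 and Mars2.

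The summed level of the 20 cytosolic genes was 2191 to 2292 CPM in scramble control and 3607 to 3986 CPM in scramble cholesterol libraries, a rise of 67.1% in the mean, or 53.4% with library totals as the scale. It rose by 60.3% in siNfe2l1, 50.02% in siAtf3 and 52.9% in double-silenced cells, without overlap of control and cholesterol libraries in any of them. The sum over the 17 mitochondrial genes rose by 15.8%, 9.77%, 18.8% and 14.7% in the same order, with overlap in all but siAtf3 cells. Without Lars2 the mitochondrial sum was 496 to 507 CPM in scramble control and 519.8 to 526 CPM in scramble cholesterol libraries, a rise of 4.51%. In the other siRNA treatments it then rose by 2.96% to 6.75%.

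**Figure D3:**
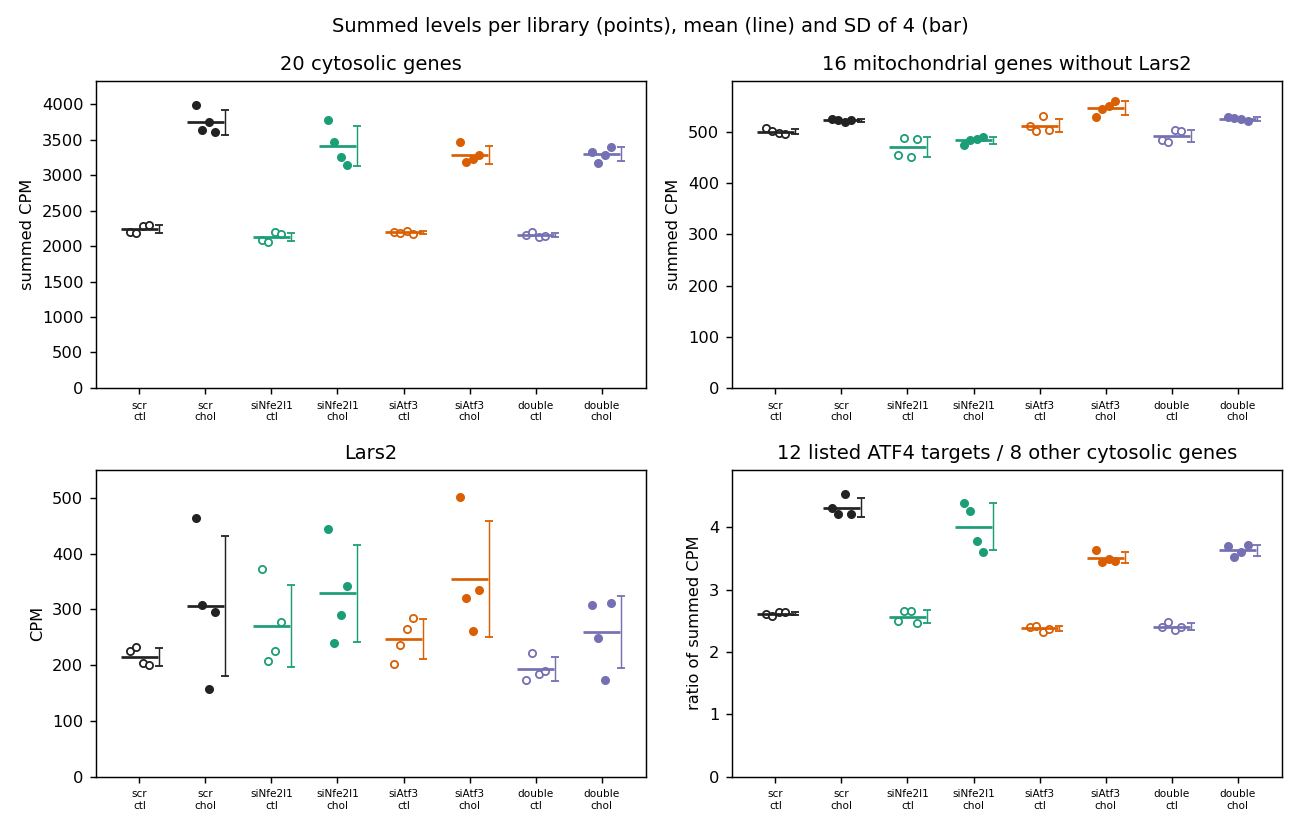
Summed CPM of the 20 cytosolic genes, of the 16 mitochondrial genes other than Lars2, CPM of Lars2, and the ratio of the 12 listed ATF4 targets to the other 8 cytosolic genes (vertical axes) in the 8 groups (horizontal axes; scr, scramble; ctl, control; chol, cholesterol). Points are libraries, lines are means and bars the SD of 4. The cytosolic sum and the ratio are higher in cholesterol than in control libraries for each siRNA, while Lars2 spreads from 156 to 463 CPM within the scramble cholesterol group.

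Lars2 made up 23.1% to 48.7% of the mitochondrial sum and varied more between libraries of a group than any other member, with a median coefficient of variation of 25.8% over the 8 groups. Pars2 came next at 9.96%. In scramble cells Lars2 read 226, 232, 203 and 200.5 CPM in control and 463, 308, 156 and 296 CPM in cholesterol libraries. These overlapped, and the log2 fold change of 0.50 ± 0.26 did not pass (adjusted p = 0.0910). The share of counts on annotated ribosomal RNA genes was 0.391% to 1.87% per library, and the library highest in Lars2 was also the highest in that share in 5 of 8 groups, the lowest likewise in 5 of 8. Its part in the Lars2 level was not tested.

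The response recurred under each siRNA, in comparisons that share no library. In siNfe2l1 cells 16 cytosolic genes rose and 1 fell and 5 mitochondrial genes rose and 4 fell (31.1% of all genes called higher and 29% lower). There the calls of Farsa and Fars2 were lost in 7 and 6 of 8 fits that left out 1 library (adjusted p up to 0.271 and 0.245) and with DESeq2, library totals, no filter or the 2 groups alone. In siAtf3 cells 16 cytosolic genes rose and none fell, and 7 mitochondrial genes rose and 1 fell (29.4% and 28.6%). For the cytosolic count of 0 lower, the edgeR test gave 0 also at an unadjusted p under 0.05, and over both classes DESeq2 and limma-voom each called 1 member lower, as edgeR did. In double-silenced cells 15 cytosolic genes rose and 1 fell, and 6 mitochondrial genes rose and 1 fell (29.8% and 28.9%).

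The same 15 of 20 cytosolic and 5 of 17 mitochondrial genes rose in all 4 comparisons, beside 21.9% of all tested genes. Of the 5, Fars2 did so only with the calls in siNfe2l1 and double-silenced cells that single libraries decide. Dars, among the 15, lost its call in siNfe2l1 cells without siNfe2l1 control library 2 or siNfe2l1 cholesterol library 4 (adjusted p up to 0.129). Cars2 fell in all 4, as did 20.8% of all tested genes. Hars, Kars and Vars of the cytosolic and Aars2, Iars2, Lars2, Pars2, Rars2 and Sars2 of the mitochondrial genes passed in none. The median of the 12 listed ATF4 targets was 0.79 in siNfe2l1, 0.81 in siAtf3 and 0.79 in double-silenced cells. Mars2 rose by 0.50 in scramble, 0.86 in siNfe2l1, 0.64 in siAtf3 and 0.67 in double-silenced cells. Cars2 stood at -0.36, -0.41, -0.35 and -0.22 in the same order, and its call in double-silenced cells was lost without double cholesterol library 1 (adjusted p = 0.0821).

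Hars2 fell in siNfe2l1 cells as in scramble cells, by 0.21 on the log2 scale. With siAtf3 it stood at 0.01 ± 0.06 and with double silencing at -0.03 ± 0.06. The differences between these responses did not pass the interaction test. Vars2 was called lower in siNfe2l1 cells alone (-0.15 ± 0.06), without a called difference from scramble. Wars2, the mitochondrial tryptophan enzyme, was called higher with siAtf3 (0.15) and with double silencing (0.18), and Tars2 with siAtf3 (0.12). The Wars2 call was lost without siAtf3 control library 4 or siAtf3 cholesterol library 4, and without double control library 1. Each of these Wars2 and Tars2 calls was lost with library totals and with no filter (adjusted p up to 0.431). That of Wars2 with siAtf3 was also lost with the DESeq2 Wald test and with only the groups compared. In double-silenced cells the call of Fars2 was lost without double control library 1 or 2 or double cholesterol library 1, and that of Qars without double cholesterol library 4 (adjusted p up to 0.0653 and 0.0614).

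The test of the difference in response (siRNA by cholesterol) found 3 members whose rise was smaller with siAtf3 than with scramble, beside 9.13% of all genes called lower and 6.21% called higher. Aars rose by 0.93 ± 0.06 with siAtf3, where it went from 220.1, 230.2, 229.8 and 221 CPM to 451, 421, 424 and 425 CPM. The difference from scramble was -0.32 ± 0.09 (adjusted p = 0.0148). Sars rose by 0.89 ± 0.06, from 139, 136, 138 and 140.1 CPM to 271, 249, 254 and 251 CPM (difference -0.27 ± 0.09, adjusted p = 0.0323). Nars rose by 0.90 ± 0.06, from 195, 190.2, 186 and 189 CPM to 389.9, 338, 338 and 353 CPM (difference -0.23 ± 0.08, adjusted p = 0.0471).

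For all 3 genes the control libraries of scramble and siAtf3 overlapped and the cholesterol libraries did not. Of all tested genes, 41.3% had no overlap between these groups in control and 40.9% in cholesterol, where 22.6% lay below scramble. Leaving out 1 library at a time, the call for Aars was lost in 1 of 16 cases, without scramble control library 2 (adjusted p = 0.0516). The call for Sars was lost in 13 of 16 and that for Nars in 14 of 16, with adjusted p up to 0.0959 and 0.164. With double silencing Sars alone had a smaller rise (difference -0.26 ± 0.09, adjusted p = 0.0409, lost in 13 of 16 cases), beside 7.21% of all genes called lower and 6.52% called higher. Aars differed there by -0.25 ± 0.09 and did not pass (adjusted p = 0.0580).

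No member was called for a difference in its cholesterol response with siNfe2l1. Only 0.247% of all genes were called there, so the absence of a call is not particular to the members. Without single libraries the number of all genes called ran from 2 to 1337. With the same edgeR test 1 member had an unadjusted p under 0.05, and DESeq2 and limma-voom called none.

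**Figure D4:**
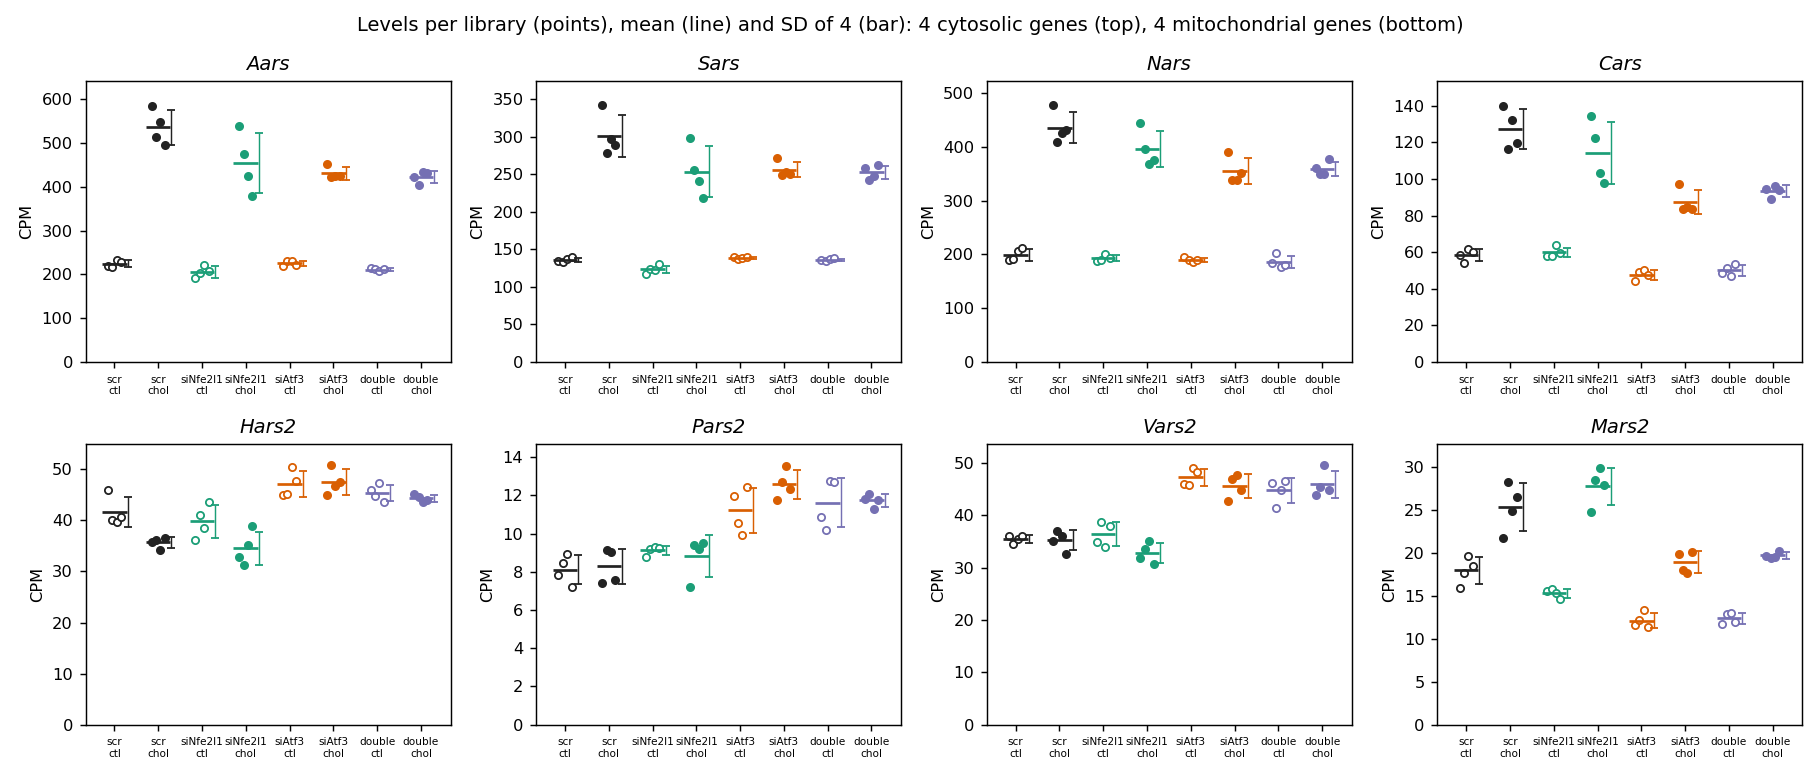
CPM (vertical axes) of Aars, Sars, Nars and Cars (top) and Hars2, Pars2, Vars2 and Mars2 (bottom) in the 8 groups (horizontal axes; scr, scramble; ctl, control; chol, cholesterol). Points are libraries, lines are means and bars the SD of 4. The 4 cytosolic genes rise with cholesterol under each siRNA, and Pars2 and Vars2 are higher in the groups with siAtf3 than in those without it.

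With siAtf3, mitochondrial genes were called in both directions. In control cells 6 mitochondrial genes were higher and 3 lower than with scramble and 2 cytosolic genes were higher and 4 lower (18.1% of all genes called higher and 18.2% lower). Over both classes 8 of 37 members were higher and 7 lower there, near the shares of all genes. In cholesterol 6 mitochondrial genes were higher and 3 lower, and 3 cytosolic genes were higher and 13 lower (23% and 27.4%). These counts depend on the scaling. With library totals the median of all genes rose by 0.14 in control and 0.19 in cholesterol, and the members became 20 higher and 1 lower in control and 17 higher and 3 lower in cholesterol, in place of 8 and 7 and of 9 and 16. Over the whole table the calls then became 5913 higher and 1871 lower in control, in place of 3071 and 3093, and 6707 higher and 2712 lower in cholesterol, in place of 3898 and 4659. Scramble and siAtf3 cells also differed in other markers. In control cells the fibroblast sum was 21632 to 22825 CPM with siAtf3, and in cholesterol it was 5963 to 6668 CPM. The adipocyte sum was 17268 to 18583 CPM against 21510 to 22269 CPM in scramble control and 22188 to 24398 CPM against 26721 to 28957 CPM in cholesterol. Their part in the results was not tested.

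Pars2, the mitochondrial proline enzyme, read 7.84, 8.48, 8.95 and 7.20 CPM with scramble and 11.98, 10.5, 9.92 and 12.4 CPM with siAtf3 in control cells (0.46 ± 0.09, adjusted p = 1.50e-04). In cholesterol it read 7.40, 9.14, 9.03 and 7.59 CPM with scramble and 11.7, 12.7, 13.6 and 12.4 CPM with siAtf3 (0.60 ± 0.09, adjusted p = 1.87e-06). The libraries of the groups did not overlap in either treatment, beside 41.3% of all tested genes without overlap in control and 40.9% in cholesterol.

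Vars2, the mitochondrial valine enzyme, read 36.0, 34.5, 35.4 and 36.03 CPM with scramble and 46.0, 45.8, 49.0 and 48.2 CPM with siAtf3 in control cells (0.41 ± 0.05, adjusted p = 1.36e-07). In cholesterol it stood at 35.2 ± 1.94 CPM with scramble and 45.6 ± 2.24 CPM with siAtf3 (SD, n = 4), a difference of 0.37 ± 0.06. The groups were again apart. Hars2 was higher by 0.18 ± 0.06 in control and 0.41 ± 0.06 in cholesterol, where its libraries read 44.9, 50.9, 46.8 and 47.5 CPM with siAtf3, all above those of scramble. In control cells the Hars2 groups overlapped. The control call of Hars2 was lost in 4 of 8 cases when a library was left out (scramble control library 2, 3 or 4 or siAtf3 control library 3, adjusted p up to 0.109).

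Mars2 had the lowest value with siAtf3 in control cells, and Cars in cholesterol. Mars2 read 11.6, 12.1, 13.3 and 11.4 CPM with siAtf3 in control cells, all below scramble (-0.57 ± 0.08, adjusted p = 1.78e-07), and 19.9, 18.0, 17.6 and 20.1 CPM in cholesterol, also all below (-0.42 ± 0.07, adjusted p = 8.85e-06). With library totals the differences were -0.43 and -0.24 and both still passed.

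Cars read 44.0, 49.2, 50.01 and 47.3 CPM with siAtf3 in control cells (-0.30 ± 0.07, adjusted p = 1.68e-03) and 97.2, 83.8, 84.8 and 83.6 CPM in cholesterol (-0.54 ± 0.07, adjusted p = 1.06e-07), without overlap with scramble in either. With library totals Cars stood at -0.16 in control (adjusted p = 0.0504) and -0.35 in cholesterol (adjusted p = 1.70e-05). Iars2 read 130.2, 133, 134 and 125 CPM with siAtf3 in control cells, against 151, 159, 149.6 and 154 CPM (-0.23 ± 0.04), and stood at -0.15 ± 0.04 in cholesterol. Under library totals the Iars2 call was lost in control and its sign turned in cholesterol (0.04), where the call was also lost without scramble cholesterol library 2 or 4 or siAtf3 cholesterol library 1 (adjusted p up to 0.0830). Ears2 was lower by 0.20 ± 0.08 in control and 0.34 ± 0.08 in cholesterol, where it read 18.4, 16.2, 16.04 and 18.1 CPM against the scramble values given above. With library totals neither Ears2 call held, and that in control was also lost without scramble control library 2 or 3 or siAtf3 control library 2 or 4 (adjusted p up to 0.110).

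**Figure D5:**
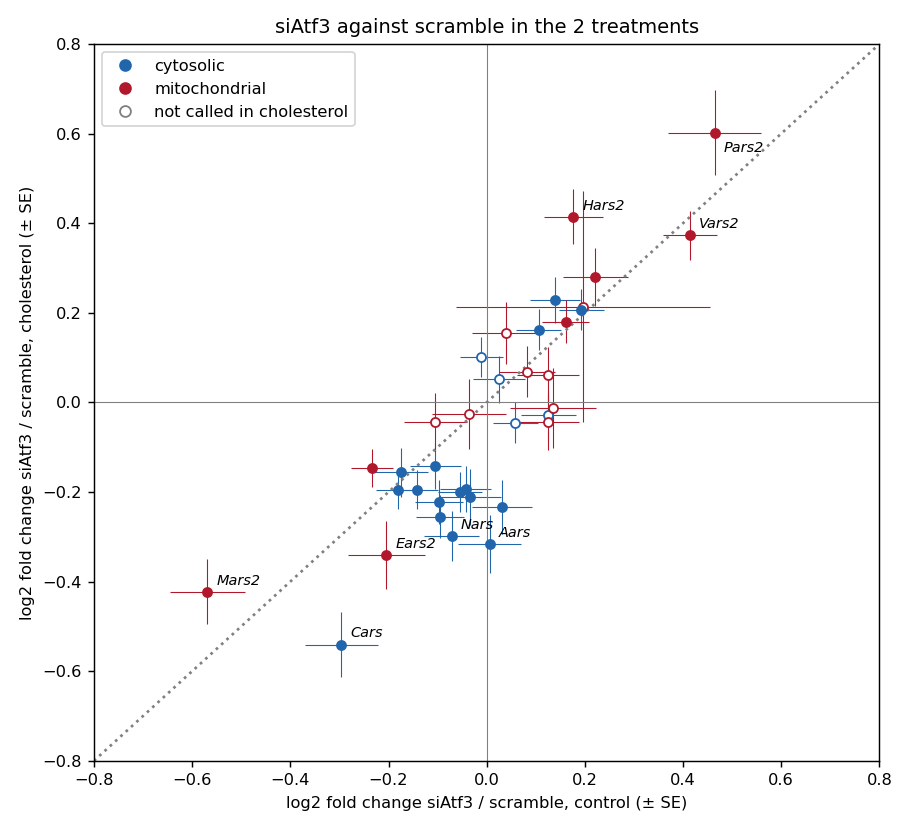
Log2 fold change of siAtf3 against scramble for 36 of the members in control (horizontal axis, ± SE) and in cholesterol (vertical axis, ± SE), with cytosolic genes in blue and mitochondrial genes in red. Open points did not pass the test in cholesterol, and the dotted line marks equal values. Vars2 lies at 0.41 and 0.37, Mars2 at -0.57 and -0.42, and Aars and Nars lie near 0 in control and at -0.32 and -0.30 in cholesterol. Under scaling by library totals all points move up.

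In the 2 treatments, which share no library, 8 members were higher with siAtf3 in both, among them Dars, Pars2 and Vars2, and 7 were lower in both (Cars, Ears2, Farsb, Iars2, Mars2, Tars and Wars), beside 12.5% and 13.8% of all tested genes. Hars, also among the 8, lost its control call in 5 of 8 fits without a single library (each but those without scramble control library 3 or siAtf3 control library 2 or 4, adjusted p up to 0.132). With library totals, Cars, Ears2, Farsb, Iars2, Tars and Wars all lost their control call (adjusted p 0.0504 to 0.938). Of the 7 lower members, Mars2 alone then kept its call in both treatments. The 12 listed ATF4 targets were all lower with siAtf3 in cholesterol, by 0.14 to 0.54 with a median of -0.22, beside 27.4% of all genes. In control 3 of the 12 were lower, beside 18.2% of all genes, and the median of the 12 was -0.08. In cholesterol the call of Iars was lost in 6 of 8 fits without a single library (all but those without library 1 of either group) and that of Tars in 4 of 8 (without scramble cholesterol library 1 or siAtf3 cholesterol library 2, 3 or 4), with adjusted p up to 0.238 and 0.118. With library totals Aars and Cars were the only 2 of the 12 still called. The other 8 cytosolic genes had a median of 0.08 in both treatments. The ratio of the 12 to the 8, which does not change with the scaling of a library, was 2.32 to 2.42 with siAtf3 against 2.58 to 2.64 with scramble in control cells. In cholesterol it was 3.44 to 3.64 against 4.21 to 4.54. The libraries did not overlap in either treatment.

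With double silencing in control cells 3 mitochondrial genes were higher and 2 lower and 2 cytosolic genes were higher and 2 lower (12.9% and 14.3% of all genes). In cholesterol 5 mitochondrial genes were higher and 3 lower and 3 cytosolic genes were higher and 12 lower (20.8% and 23.9%). With library totals the members became 11 higher and 2 lower in control and 16 higher and 4 lower in cholesterol, with shifts of 0.10 and 0.15 in the median of all genes. The whole table then gave 4373 genes higher and 1473 lower in control, in place of 2199 and 2426, and 6049 higher and 2299 lower in cholesterol, in place of 3537 and 4056. These comparisons use the same scramble libraries as those of siAtf3 alone, so their values are given side by side only.

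With double silencing Pars2 was higher by 0.52 in control (10.9, 10.2, 12.7 and 12.7 CPM) and 0.50 in cholesterol (11.8, 12.1, 11.3 and 11.8 CPM), and Vars2 by 0.34 and 0.38. Mars2 was lower, at -0.54 (11.7, 12.9, 13.0 and 11.9 CPM) and -0.36 (19.6, 19.4, 19.5 and 20.2 CPM). Cars stood at -0.22 and -0.45, Iars2 at -0.30 and -0.24, and Aars was called lower in cholesterol (-0.34, at 422, 403, 433 and 432 CPM). All libraries named in this paragraph lay outside the range of their scramble group. Over all tested genes, 33.7% had no overlap with scramble in control and 37.8% in cholesterol. The calls of Hars and Dars in control cells, 0.13 and 0.12, were each lost without most of the single libraries, 8 of 8 and 6 of 8. That of Cars in control was lost in 4 of 8 cases, without scramble control library 3 or 4 or double control library 1 or 3 (adjusted p up to 0.0703).

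Silencing of Nfe2l1 gave calls for 2 of 37 members in control cells and 8 of 37 in cholesterol. These shares were near the 5.99% and 19.9% of all genes called in either direction. The comparisons again use the same scramble libraries. In control cells no member was higher and 2 mitochondrial genes were lower, against 3.13% and 2.87% of all genes. At an unadjusted p under 0.05, edgeR gave 0 higher and 11 lower, DESeq2 called 4 and limma-voom 2 lower, and neither called any higher. Tars2, the mitochondrial threonine enzyme, read 46.4, 42.9, 43.0 and 43.3 CPM with scramble and 36.8, 37.1, 33.1 and 39.9 CPM with siNfe2l1 (-0.26 ± 0.05, adjusted p = 5.99e-04), without overlap. In cholesterol it read 49.9, 46.6, 46.4 and 45.2 CPM with scramble and 38.8, 38.6, 37.3 and 36.2 CPM with siNfe2l1 (-0.32 ± 0.05, adjusted p = 1.67e-05), again without overlap. Over all tested genes, 13.8% had no overlap in control and 12.5% in cholesterol. Iars2 read 130.4, 144, 135 and 139 CPM with siNfe2l1 in control cells (-0.16 ± 0.04, adjusted p = 0.0145), below each scramble library, and stood at -0.16 ± 0.04 in cholesterol. Its control call was lost without scramble control library 2 or 4 or siNfe2l1 control library 1 or 3 (adjusted p up to 0.0906). With no filter that call was lost as well (adjusted p = 0.0874).

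In cholesterol 5 cytosolic and 3 mitochondrial genes were lower with siNfe2l1 and none was higher (8.59% and 11.3% of all genes, with 0 higher also at an unadjusted p under 0.05, by DESeq2 and by limma-voom). Sars read 299, 256, 241 and 219 CPM with siNfe2l1 (-0.25 ± 0.06, adjusted p = 3.25e-03) and Aars 539, 474, 424 and 379 CPM (-0.24 ± 0.06, adjusted p = 7.17e-03). Both overlapped with scramble, with library 1 among the scramble values and the other 3 libraries below them. In libraries 3 and 4 Atf3 also read lowest, at 166 and 134 CPM against 481 and 289.97 CPM in libraries 1 and 2. Without libraries 3 and 4 Sars stood at -0.12 (adjusted p = 0.283) and Aars at -0.08 (adjusted p = 0.481). Tars2 (-0.28, adjusted p = 0.00261) and Iars2 (-0.20, adjusted p = 0.0137) then still passed, and they were the 2 members left of 8. With all libraries kept, the Iars2 call was lost with library totals and with only the groups compared (adjusted p up to 0.154). Leaving out single libraries gave 4 members lower without scramble cholesterol library 1 or siNfe2l1 cholesterol library 3 and 15 without siNfe2l1 cholesterol library 1. Macrophage markers summed to 258 to 301 CPM with siNfe2l1 against 142 to 173 CPM with scramble in cholesterol, and 12 of 13 of them were higher. Their part in the results was not tested.

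Of 12 genes for proteins that work beside the synthetases, 4 rose and 3 fell with cholesterol in scramble cells, close to the 32.9% and 32.3% of all genes, with a median of 0.06. Eef1e1, a scaffold protein of the multisynthetase complex, read 15.4, 15.4, 15.4 and 18.0 CPM in control and 40.0, 30.6, 33.6 and 32.5 CPM in cholesterol libraries (1.09 ± 0.08, adjusted p = 1.88e-14). The groups did not overlap. The other scaffold genes Aimp1 and Aimp2 rose by 0.26 ± 0.06 and 0.22 ± 0.08, and Trnt1, which adds the CCA end to transfer RNAs, by 0.60 ± 0.05. Mtfmt, which formylates the initiator methionyl-tRNA of mitochondria, fell (-0.42 ± 0.07). Gatc, a subunit of the amidotransferase that makes mitochondrial glutaminyl-tRNA, fell as well (-0.23 ± 0.06), while the subunits Gatb (0.07 ± 0.06) and Qrsl1 (0.01 ± 0.08) did not pass. The third gene that fell, Aarsd1, stayed below 1.2 CPM in every scramble library.

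Tars3, listed as Tarsl2, did not pass with cholesterol (0.10 ± 0.10). With siAtf3 it read 12.5, 12.6, 13.1 and 12.1 CPM in control cells against 8.13, 7.11, 8.02 and 8.69 CPM with scramble (0.66 ± 0.09, adjusted p = 5.71e-07), and it was 0.74 ± 0.09 higher in cholesterol. Both treatments separated the groups. With siAtf3 in cholesterol Eef1e1 was lower (-0.35 ± 0.08), as was Trnt1 (-0.50 ± 0.05), and Mtfmt was higher (0.52 ± 0.07). In all, 4 of these 12 genes were higher and 3 lower there, beside 23% and 27.4% of all genes.

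Regulators and targets of the integrated stress response rose with cholesterol in scramble cells in 17 of 20 cases and fell in 1 (32.9% and 32.3% of all genes), with a median of 1.16. Atf4 rose by 1.85 ± 0.14, Ddit3 by 3.12 ± 0.19, and Asns, the asparagine synthetase that is a standard ATF4 target, by 0.94 ± 0.05. Slc7a11, a cystine transporter, rose by 3.05 ± 0.12. With siAtf3 in cholesterol 12 of the 20 were lower and 2 higher (27.4% and 23% of all genes), with Atf4 at -0.80 ± 0.13, Ddit3 at -1.02 ± 0.17, Asns at -0.37 ± 0.05 and the amino acid transporter Slc7a5 at -0.84 ± 0.08. Atf4 read 506.5, 376, 388 and 389 CPM with siAtf3, all below the scramble cholesterol libraries given above. With siNfe2l1 in cholesterol 2 of the 20 were lower and 2 higher, near the 8.59% and 11.3% of all genes, and Atf4 did not pass (-0.32 ± 0.13).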

How the data were processed

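The authors deposited unscaled counts of reads for each gene in 32 libraries. The submitters' processing notes name fastp, HISAT2 2.0.5, featureCounts 1.5.0-p3 and GRCm39. Strandedness, the treatment of multiply aligned reads and the annotation release are not given in the sources used here. A C added to a column's name was taken to mean cholesterol treatment.

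Counts were filtered with filterByExpr of edgeR 4.0.16 in R 4.3.3 (minimum count 10, minimum total 15), which left 16984 genes, and scaled by TMM factors (0.886 to 1.10). One robust quasi-likelihood model of 8 group means (24 residual degrees of freedom) gave 13 comparisons. P-values were Benjamini-Hochberg adjusted over all tested genes, with calls at 0.05. The fit was also run on simulated data in which few genes changed, as many up as down. That run cannot speak to the dependence on scaling described above. CPM and RPKM use TMM-scaled libraries, and RPKM also the deposited gene length.

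Within groups, the counts of each of 48 pairs of libraries differed beyond counting error (chi-square 2.75 to 44.7 times its degrees of freedom).

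The members, lists and tests were chosen with earlier results of these data known. By rule, library values are given for up to 4 called members per direction and class with cholesterol in scramble cells and up to 3 per direction elsewhere, and other lists are named by up to 4 genes of smallest adjusted p plus Atf4, Ddit3, Asns, the scaffold genes and Tars3. Values of Lars2, Kars, Gatb, Gatc, Qrsl1 and Aarsd1 were added after they were seen. Alternatives were DESeq2 1.42.0, its size factors, limma-voom (limma 3.58.1), library totals, no filter, only the groups compared, a replicate block, and leaving out libraries. Added after seeing the data were fits without siNfe2l1 cholesterol libraries 3 and 4 and without the 8 libraries numbered 1. Values of 1 member and 1 promoter site are not reported here.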

Additional observations from a re-analysis of the deposited data

Results flagged for a closer look

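Within single groups of 4 libraries, 101 combinations of a group with a gene or a class sum were checked. Of these, 3 held a library that stood far from the other 3, where chance gives about 1 in 20. Library 1 of the siAtf3 cholesterol group was the highest for Aars, at 451.3 CPM, and for Cars, at 97.2 CPM. Library 1 of the scramble control group was the highest for Tars2, at 46.4 CPM.

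Responses to cholesterol differed between siRNA treatments by the interaction test for 3 of 37 members with siAtf3 and 1 with double silencing, beside 9.13% and 7.21% of all genes called lower, so the members' share is not above that of all genes. The response with siAtf3 was lower than with scramble by a log2 difference of -0.32 for Aars, -0.27 for Sars and -0.23 for Nars. With double silencing it was lower for Sars, by -0.26. The calls of Sars and Nars with siAtf3 were lost in 13 and 14 of 16 fits without a single library, that of Sars with double silencing in 13 of 16 and that of Aars in 1. The control groups of scramble and siAtf3 overlapped for these 3 genes, and their cholesterol groups did not, beside 40.9% of all genes without overlap in cholesterol.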

How the results depend on the processing

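Counts of cholesterol-responsive members moved little with the tool. With library totals, members called lower with cholesterol became 8 in scramble (4 in the main fit) and 4 in siAtf3 cells (1), and members lower with siNfe2l1 in cholesterol 3 (8). The same scaling gave 20 higher and 1 lower for siAtf3 in control, 17 and 3 for siAtf3 in cholesterol, 11 and 2 for double silencing in control, and 16 and 4 in cholesterol. It turned the sign of Tars (0.0306), Iars (0.0435) and Iars2 (0.0398) with siAtf3 in cholesterol, left 0 members lower for double silencing by cholesterol, and gave rises of 53.4%, 42.5% and 45.4% in the cytosolic sum in scramble, siAtf3 and double-silenced cells. Without the highest member that sum rose by 59.1% in scramble and 47.8% in double-silenced cells.

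The interaction of siAtf3 with cholesterol gained 1 higher member under DESeq2 size factors, the DESeq2 Wald test, library totals and the fit on only the groups compared, and kept 1 lower without a filter. That of double silencing had 2 lower under the Wald test, no filter and only the groups compared. DESeq2 size factors left 3 higher (5) with double silencing in control, as did no filter. No filter also left 1 lower (2) with siNfe2l1 in control and 4 higher (8) with siAtf3 in control. The Wald test called 4 lower with siNfe2l1 in control. The fit on only the groups compared called 1 lower (8) with siNfe2l1 in cholesterol and 8 lower (4) with double silencing in control. Without siNfe2l1 cholesterol libraries 3 and 4, 2 were lower with siNfe2l1 in cholesterol. Without the 8 libraries numbered 1, 1 member fell with cholesterol in double-silenced cells (2), 1 was higher for siNfe2l1 by cholesterol and 0 lower for double silencing by cholesterol. These 2 fits were chosen after seeing the data. The cause of these changes was not tested.

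Leaving out single libraries gave 4 to 15 lower members with siNfe2l1 in cholesterol, 1 to 3 lower with siNfe2l1 in control, 3 to 4 higher with double silencing in control, 1 to 2 lower with cholesterol in double-silenced cells, 0 to 3 lower and 0 to 1 higher for siAtf3 by cholesterol, 0 to 2 lower for double silencing by cholesterol and 0 to 1 higher for siNfe2l1 by cholesterol. Of 2994 values of single called members under the alternatives, 2734 kept their direction and call, 257 lost the call and 3 changed sign. Over all genes, calls for siNfe2l1 in cholesterol were 3382, against 645 with only the groups compared, 1206 without libraries 3 and 4 and 2153 without library 3. Those for siNfe2l1 by cholesterol were 42, against 2 to 1337 without single libraries.

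With the replicate number as a block, 20 members rose and 4 fell with cholesterol in scramble cells, as without it, and no count of members moved by over 1.5 times. Libraries of the same number were not shown to be paired: their deviations correlated between -0.08 and 0.26 (median 0.01, 6 of 112 pairs over 0.1). Over all genes the block gave 143 calls for siNfe2l1 by cholesterol in place of 42. At these depths the lowest member rested on 158 reads.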
